A study of Mus musculus with 8 samples.

Results

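The Smad4, Tgfbr2 and Ltbp1 genes gave 11 of the 6315 circular RNAs (circRNAs) counted in these mouse kidneys, and every listed circRNA with one of these 3 host names was taken. Smad4 had 6 circRNAs, Ltbp1 had 4 and Tgfbr2 had 1. A circRNA is a closed loop made when a downstream splice donor joins an upstream acceptor, and it is counted apart from the linear transcript of its host gene. The linear transcripts were not analysed here, so the values below say nothing of the messenger RNA or protein of these genes.

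The 3 hosts stand at successive steps of transforming growth factor beta (TGF-beta) signalling. Ltbp1 encodes a binding protein that holds the latent ligand in the extracellular matrix. Tgfbr2 encodes the type II receptor, a serine/threonine kinase that binds the active ligand and phosphorylates the type I receptor. Smad4 encodes the common mediator that joins phosphorylated Smads and enters the nucleus with them. In the kidney this pathway is known as a driver of matrix production and fibrosis after injury.

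Total RNA of whole kidneys came from mice labelled as strain C57BL/6L, aged 8 to 10 weeks. The UUO group held 3 libraries from unilateral ureteral obstruction, in which 1 ureter is blocked, and the group labelled acute-chronic (AC) held 2 libraries. The control group held 3. Injured kidneys were taken at day 5. Ischaemia/reperfusion and sham surgery also appear in the design text, while control titles read WT. Whether 2 libraries of a group share an animal is not labelled, so the spread behind each p-value may be partly technical. In whole kidney, fewer cells of a type and less RNA per cell cannot be told apart.

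The comparisons ask whether circRNAs of these pathway genes differ between injured and control kidneys, and between both injuries. With edgeR, 0 of 6 tested circRNAs passed an adjusted p of 0.05 in UUO against control, where 4.35% of all 1471 tested circRNAs did. The same count was 0 of 6 in AC against control, where 3.33% of all passed, and 0 of 6 for the mean of UUO and AC against control, where 5.23% passed. By host sum 0 of 3 passed, beside 6.09% of all 1182 tested hosts in UUO, 3.47% in AC and 7.45% for the mean. The lowest p against control among them belonged to a minor Smad4 circRNA, mmu_circ_0007496, which stood at 3.99-fold in UUO over control and missed the threshold after adjustment. Among 17 tested circRNAs of other pathway genes 1, of Smad1, passed as higher in each injury, a call that most single-library omissions ended.

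Libraries held between 40865 and 65145 circRNA counts, and the 11 circRNAs of these hosts took between 0.212% and 0.384% of them. One count was worth between 18.9 and 29.2 CPM, the counts-per-million unit used below for levels, so a single count is a visible step for most of these circRNAs. Uty, a Y-linked host, had 0 counts over its 4 listed circRNAs in UUO replicate 1 and control replicate 2, and between 7 and 29 in each other library; the labels give no sex. Host sums of the 3 hosts and the Smad1 circRNA are therefore also given without these 2 libraries, a choice made after the counts had been seen. Among marker genes of kidney cell types, circRNAs were listed for 2 of 10 of the proximal tubule (Lrp2 and Slc4a4), 3 of 8 of the loop and distal tubule (Klhl3, Wnk1 and Slc8a1), 2 of 7 of endothelium and 1 of 8 of injured tubule (Dcdc2a). No gene of the fibroblast and pericyte (10), immune (10), collecting duct (8) or podocyte (6) lists had one. Proximal tubule markers summed to between 1197 and 1649 CPM in UUO, between 1313 and 1555 CPM in AC and between 1622 and 3435 CPM in control. Loop and distal tubule markers summed to between 482 and 841 CPM in UUO, between 471 and 1138 CPM in AC and between 2584 and 2982 CPM in control. Klhl3 carried most of that sum, at 470.1 CPM in UUO, 527 CPM in AC and 2244 CPM in control on average, while Wnk1 averaged 54.3 CPM in UUO, 140.2 CPM in AC and 45.5 CPM in control. Dcdc2a ran between 3172 and 3569 CPM in UUO, between 2285 and 2479 CPM in AC and between 75.5 and 133 CPM in control. The part of these marker differences in the results below was not tested.

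Ltbp1 had the fewest counts of the 3 hosts, 95 over 8 libraries. Its 4 circRNAs together stood at 102, 537.1 and 252 CPM in UUO replicates 1 to 3, at 259 and 438 CPM in AC replicates 1 and 2, and at 399, 132 and 165 CPM in control replicates 1 to 3. The group means were 297 ± 221 CPM in UUO (SD, n = 3), 348 ± 126 CPM in AC (SD, n = 2) and 232 ± 145 CPM in control (SD, n = 3). All 3 groups overlapped, and UUO replicate 1 was the lowest of all libraries. With the quasi-likelihood test of edgeR the log2 fold change of the host sum was 0.33 in UUO against control (SE 0.66, adjusted p = 0.851) and 0.57 in AC against control (SE 0.74, adjusted p = 0.763). Its 95% interval in UUO ran from 0.483-fold to 3.29-fold, so a rise or a fall of this size cannot be told from none. Without UUO replicate 2 the UUO value turned to -0.37. Without the 2 libraries that lacked Uty counts the Ltbp1 sum was at 0.45 in UUO against control (adjusted p = 0.821) and 0.30 in AC against control (adjusted p = 0.882).

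Within Ltbp1, mmu_circ_0007013 was the only circRNA past the low-count filter, with 71.6% of the host's counts. It had 4, 19 and 8 counts in UUO, 7 and 13 in AC, and 4, 7 and 6 in control. In CPM these were 102, 444 and 168 in UUO, 165 and 379 in AC, and 106, 132 and 124 in control. The control libraries had 4 to 7 counts each and stood at 121 ± 13.2 CPM (SD, n = 3). That SD is below the worth of 1 count. Both AC libraries were above all control libraries, while UUO replicate 1 was below all of them. AC libraries stood wholly above control in 15.4% of all 1471 tested circRNAs, so this arrangement is common. Its log2 fold change was 0.96 in UUO against control (SE 0.79, adjusted p = 0.617) and 1.13 in AC against control (SE 0.87, adjusted p = 0.646).

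The other 3 Ltbp1 circRNAs had 16 counts (mmu_circ_0007011), 10 counts (mmu_circ_0007012) and 1 count (mmu_circ_0000816) over the 8 libraries and were not tested. All 10 counts of mmu_circ_0007012 lay in UUO replicate 2, with 4, and control replicate 1, with 6. In control replicate 1, where mmu_circ_0007011 had 5 counts as well, mmu_circ_0007013 made up 26.7% of the Ltbp1 counts, with an exact Clopper-Pearson 95% interval from 7.79% to 55.1% that covers counting error only. In the other 7 libraries its share was between 63.6% and 100%.

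Tgfbr2 had a single listed circRNA, mmu_circ_0001853, with 148 counts over the 8 libraries. It had 16, 23 and 24 counts in UUO, 26 and 14 in AC, and 5, 27 and 13 in control. In CPM these were 406, 537.1 and 504 in UUO, 613 and 408 in AC, and 133, 510 and 269 in control. The 5 injured libraries lay within a narrow band from 406 to 613 CPM, and the control libraries spread from 133 CPM, below all of that band, to 510 CPM, inside it. The means were 482 ± 68.1 CPM in UUO (SD, n = 3), 510 ± 144 CPM in AC (SD, n = 2) and 304 ± 191 CPM in control (SD, n = 3).

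For this circRNA the log2 fold change was 0.63 in UUO against control (SE 0.48, adjusted p = 0.582) and 0.72 in AC against control (SE 0.54, adjusted p = 0.631) with edgeR. Its 95% interval in UUO ran from 0.762-fold to 3.16-fold. Leaving out control replicate 2, the control library at 510 CPM, and UUO replicate 1, both without Uty counts, moved the Tgfbr2 host sum to 1.29 in UUO (adjusted p = 0.307) and 1.30 in AC (adjusted p = 0.321). With all libraries the host sum, the same counts in a separate fit with its own filter and scaling, was at 0.58 in UUO and 0.69 in AC. Other settings lowered it: without control replicate 1, the lowest control library, it was at 0.25 in UUO and 0.35 in AC, and with the deposited constant as library size at 0.27 in UUO and 0.32 in AC. UUO and AC had nearly equal means, and the difference between them was -0.09 on the log2 scale (SE 0.53, adjusted p = 0.997).

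**Figure D1:**
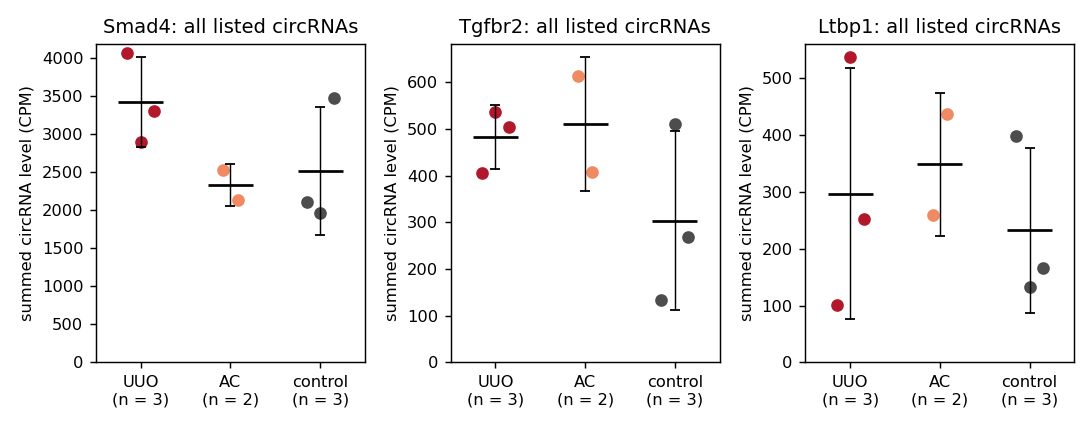
Summed level of all listed circRNAs of Smad4, Tgfbr2 and Ltbp1 in each library (points, CPM on a linear axis from 0), with the mean and SD of UUO, AC and control. For Smad4 the 3 UUO libraries sit between 2896 and 4060.2 CPM, above both AC libraries at 2129 and 2521 CPM, while control spans 1963 to 3474 CPM; for Tgfbr2 and Ltbp1 the groups overlap.

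Smad4 had the most circRNAs and counts of the 3 hosts. Its 972 counts placed it at rank 78 of 2833 hosts, and its 6 circRNAs among the 6.92% of hosts with 6 or more. The host sum was 4060.2, 2896 and 3296 CPM in UUO, 2521 and 2129 CPM in AC, and 2100.4, 1963 and 3474 CPM in control. The mean was 3417 ± 592 CPM in UUO (SD, n = 3), 2325 ± 277 CPM in AC (SD, n = 2) and 2512 ± 835 CPM in control (SD, n = 3). Control replicate 3 lay among the UUO libraries and the other 2 control libraries lay below every AC library.

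None of the Smad4 comparisons passed the threshold over all hosts. The log2 fold change of the host sum was 0.39 in UUO against control (SE 0.25, edgeR adjusted p = 0.420), with an interval from 0.915-fold to 1.88-fold. In AC against control it was -0.14 (SE 0.29, adjusted p = 0.854), with an interval from 0.600-fold to 1.37-fold, and without control replicate 3 it turned to 0.16. In UUO against AC it was 0.53 (SE 0.29, adjusted p = 0.816); the UUO libraries stood wholly above AC, as did 12.9% of all 1182 tested hosts. Without the 2 libraries that lacked Uty counts the Smad4 sum was at 0.098 in UUO against control and -0.28 in AC against control. Scaling by the constant that relates both deposited tables shifted the median of all hosts to -0.25 in UUO and -0.30 in AC, so all values here are relative to the other circRNAs.

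The leading Smad4 circRNA, mmu_circ_0000894, held 80.8% of the host's counts and ranked 76 of 6315. It had 125, 104 and 128 counts in UUO, 76 and 52 in AC, and 74, 79 and 147 in control. In CPM these were 3172, 2429 and 2688 in UUO, 1790.5 and 1517 in AC, and 1967, 1491 and 3039 in control. The 3 UUO libraries were above both AC libraries, as in 13.2% of all tested circRNAs, and the control libraries ran across both groups. The log2 fold change was 0.35 in UUO against control (SE 0.27, edgeR adjusted p = 0.579) and -0.39 in AC against control (SE 0.31, adjusted p = 0.659). In UUO against AC it was 0.74 (SE 0.31), with an edgeR p of 0.0293 before and 0.816 after adjustment. Of all tested circRNAs, 5.57% had a p under 0.05 before adjustment in that comparison and 0% passed after it; DESeq2 called 2 of them, neither from these hosts, and limma-voom 0.

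A smaller Smad4 circRNA, mmu_circ_0007496, was highest in UUO. It had 10, 20 and 13 counts in UUO, 10 and 1 in AC, and 4, 3 and 4 in control. These were 254, 467 and 273 CPM in UUO, 236 and 29.2 CPM in AC, and 106, 56.6 and 82.7 CPM in control. Every UUO library was above every control and AC library. UUO replicate 1 and AC replicate 1 had 10 counts each and differed by scaling only. The AC libraries lay far apart, 1 near the UUO range and 1 below control. The log2 fold change in UUO against control was 2.0 (SE 0.87), 3.99-fold, with an interval from 1.11-fold to 14.3-fold. The edgeR p was 0.0352 before adjustment and 0.257 after it, so it did not pass. UUO libraries stood wholly above control in 13.3% of all tested circRNAs and wholly above AC in 13.2%. In AC against control the value was 0.73 (SE 0.99, adjusted p = 0.806), and without AC replicate 1 it turned to -1.42.

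**Figure D2:**
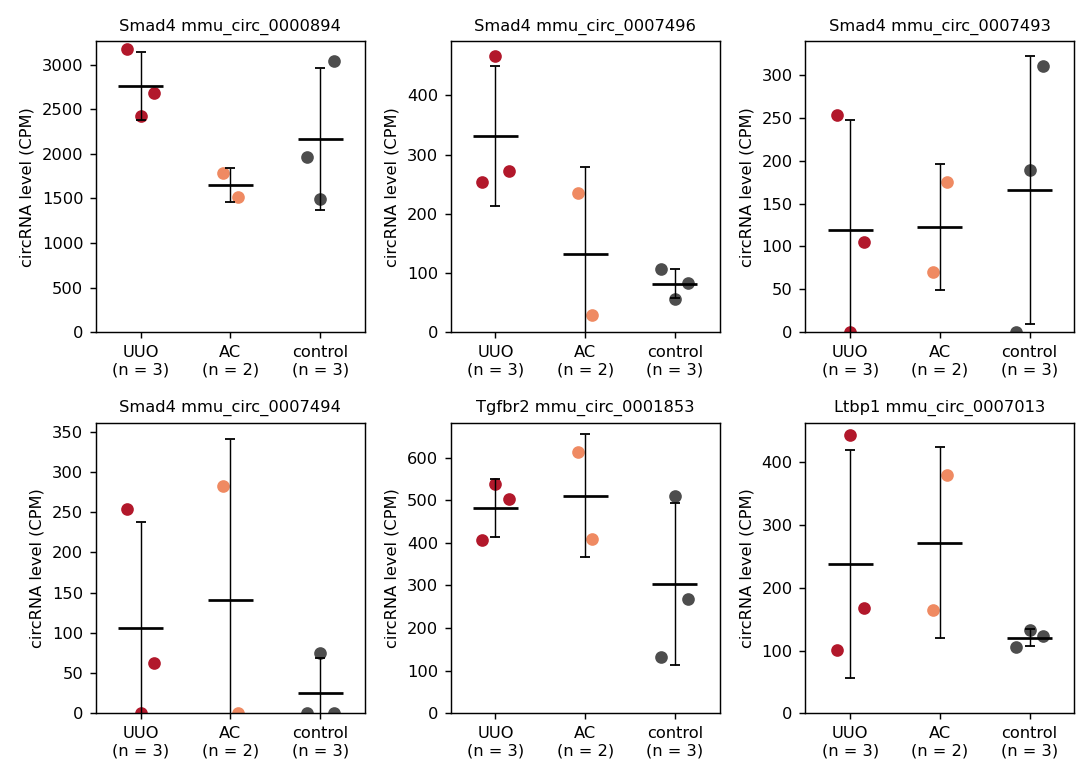
Level of the 6 tested circRNAs in each library (points, CPM on linear axes from 0), with mean and SD by group. The 3 UUO libraries of mmu_circ_0007496 lie between 254 and 467 CPM, above the 3 control libraries at 56.6 to 106 CPM; mmu_circ_0007493 and mmu_circ_0007494 each have a UUO library at 0 beside one at 254 CPM.

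The remaining Smad4 circRNAs were patchy, present in some libraries and at 0 in others of the same group. The counts of mmu_circ_0007493 were 10, 0 and 5 in UUO, 3 and 6 in AC, and 0, 10 and 15 in control. For mmu_circ_0007494 they were 10, 0 and 3 in UUO, 12 and 0 in AC, and 0, 4 and 0 in control. The biological coefficient of variation, the spread between replicates beyond counting error, was 0.908 and 1.17 for these 2, against 0.237 for mmu_circ_0000894 and a median of 0.422 over all tested circRNAs. Their log2 fold changes in UUO against control were -0.50 (SE 1.32) and 1.84 (SE 2.07), with adjusted p of 0.905 and 0.731. With 1 library left out in turn, mmu_circ_0007494 ran from 1.27 to 5.16 in UUO against control, the highest without control replicate 2. The untested mmu_circ_0007495 had 28 counts in 4 libraries, at 0, 0 and 8 in UUO, 4 and 12 in AC, and 0, 4 and 0 in control. The untested mmu_circ_0007492 had 16 counts in 6 libraries.

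Only AC replicate 1 and control replicate 2 held all 6 Smad4 circRNAs, and UUO replicate 2 held 2 of them, mmu_circ_0000894 and mmu_circ_0007496. Apart from the leading circRNA, the other 5 summed to 655 ± 214 CPM in UUO (SD, n = 3), 671 ± 83.3 CPM in AC (SD, n = 2) and 346 ± 186 CPM in control (SD, n = 3). UUO replicate 2, at 467 CPM, overlapped with control replicate 2, at 472 CPM. As a share of Smad4 counts, mmu_circ_0000894 made up 81.2% ± 2.89 in UUO (SD, n = 3), 71.1% ± 0.145 in AC (SD, n = 2) and 85.7% ± 8.99 in control (SD, n = 3). The highest share was 93.7% in control replicate 1 (exact Clopper-Pearson 95% interval 85.8% to 97.9%, counting error only) and the lowest 71.0% in AC replicate 1 (61.5% to 79.4%).

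**Figure D3:**
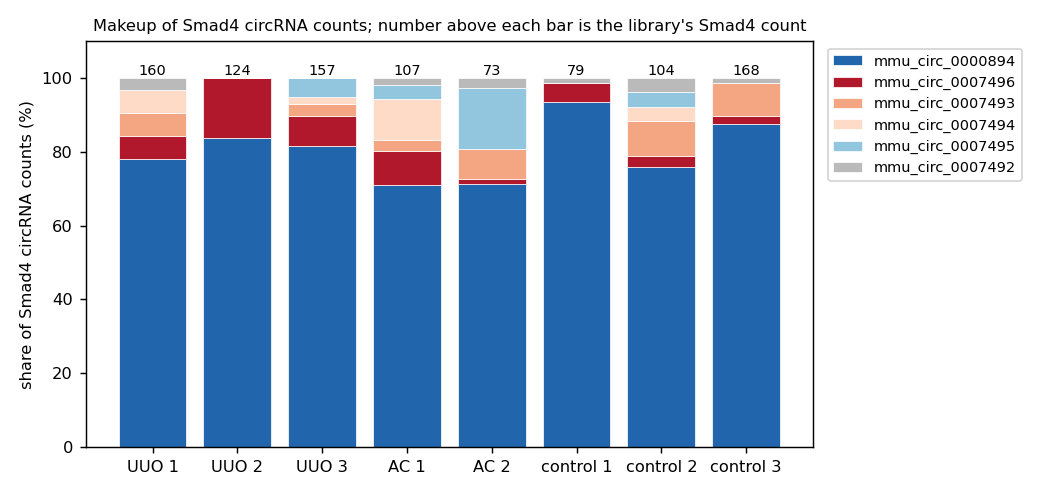
Makeup of the Smad4 circRNA counts in each library, as stacked shares in percent, with the library's Smad4 count above each bar. The share of mmu_circ_0000894 (bottom segment) lies between 78.1% and 83.9% in UUO, at 71.0% and 71.2% in AC, and between 76.0% and 93.7% in control.

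Shares were compared over libraries by a two-sided exact permutation test. With UUO and AC together against control, the share of mmu_circ_0000894 differed by -8.55 percentage points (exact permutation p = 0.143), where the smallest p of that design is 0.0179. The share of mmu_circ_0007496 was 10.2% ± 5.22 in UUO (SD, n = 3) and 3.44% ± 1.43 in control (SD, n = 3), and higher in each UUO library. The exact permutation p for UUO against control was 0.1, the smallest that 3 against 3 libraries allow. The adjusted p was 1 for each of the 20 share comparisons; in a family of that size a single comparison at its smallest possible p could not have passed, so this says nothing of stability. A fit across all circRNAs also asked whether one circRNA moved apart from the others of its host. In UUO against control this difference was 1.08 on the natural-log scale for mmu_circ_0007496 (edgeR adjusted p = 0.999). There 0% of 705 circRNAs passed, 13 had a p under 0.05 before adjustment, and 0 of the 4 tested Smad4 circRNAs were among those. In AC against control the share passing was 0.142%, again with 0 of 4 from Smad4.

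The 0 calls among these hosts did not depend on the test. DESeq2 and limma-voom, like edgeR, called 0 of these circRNAs and host sums, although DESeq2 gave no adjusted p for 4 of the 6 circRNAs in AC against control. An edgeR p under 0.05 before adjustment was found for 1 of 6 in UUO against control (mmu_circ_0007496), where 15.5% of all circRNAs had one. The count was 0 of 6 in AC against control (14.1% of all) and 1 of 6 in UUO against AC (mmu_circ_0000894, 5.57% of all). The other 5 listed circRNAs missed the low-count filter; with no filter all 11 were tested and 0 passed. The median log2 fold change of the 6 was 0.79 in UUO against control, with 5 above 0, beside 0.02 over all tested circRNAs. In AC against control it was 0.73, with 4 above 0, beside -0.02 over all. Both comparisons share the control libraries, and the 6 passed the filter in part through the group where they were high, so these medians support no direction.

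**Figure D4:**
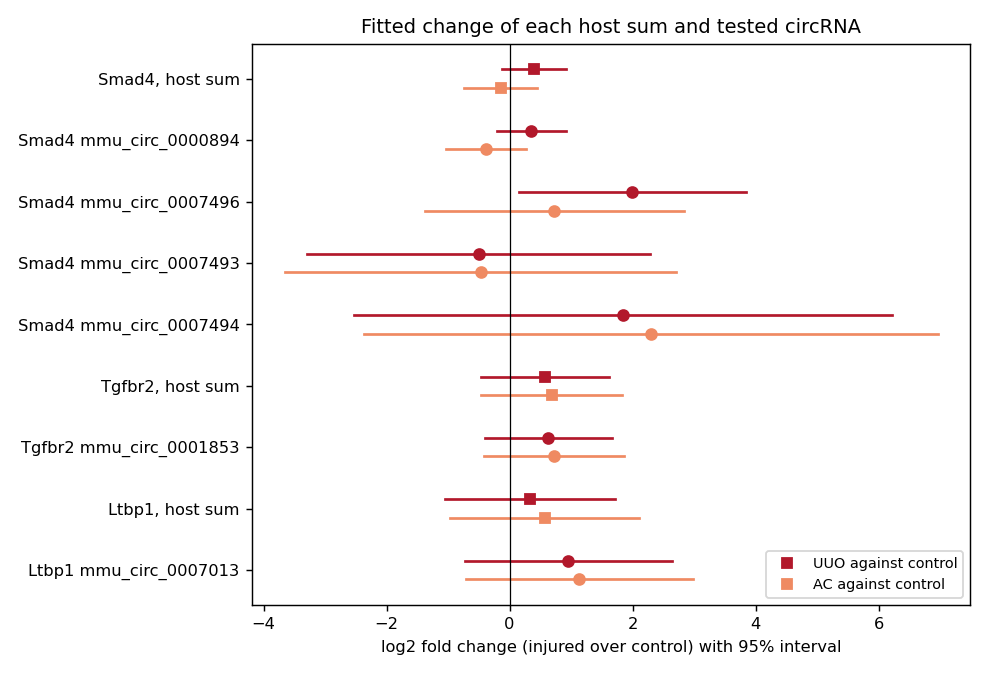
Fitted log2 fold change (horizontal axis, injured over control) with its 95% interval for each host sum (squares) and tested circRNA (circles), in UUO against control and AC against control. Only the UUO interval of mmu_circ_0007496, from 0.16 to 3.84, stays above 0, and its adjusted p was 0.257.

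A list of 155 genes of the TGF-beta and BMP pathway gave the setting of these hosts. Of these genes, 46 had a listed circRNA and 14 a tested one. No circRNA was listed for any of 28 target genes, and among 13 ligand genes only Bmp7 had one (14 counts, not tested). Genes with a listed circRNA were 5 of 20 for the latent complex, 8 of 16 for receptors, 4 of 8 for Smads, 14 of 39 for Smad regulators, 10 of 17 for nuclear partners and 4 of 14 for the non-Smad branch. Apart from Smad4, Tgfbr2 and Ltbp1, the list held 17 tested circRNAs, of which 1 passed as higher and 0 as lower in UUO against control, and likewise in AC against control. Over all tested circRNAs 2.86% passed as higher and 1.5% as lower in UUO (42 and 22), and 1.9% and 1.43% in AC (28 and 21). With the deposited constant as library size these counts were 11 higher and 26 lower in UUO, and 7 higher and 22 lower in AC, and the list's 1 call was lost in both. The median log2 fold change of the 17 was 0.39 in UUO, with 12 above 0, and 0.45 in AC, with 13 above 0. Over all tested circRNAs it was 0.02 in UUO, with 50.6% above 0, and -0.02 in AC, with 49.4% above 0. Both comparisons share the control libraries, and the list was compiled with earlier results of these data known, so these medians support no direction.

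The circRNA that rose was mmu_circ_0001699 of Smad1, a receptor-regulated Smad of the BMP branch that pairs with Smad4. It had 53, 76 and 58 counts in UUO, 58 and 61 in AC, and 31, 22 and 23 in control. In CPM these were 1345, 1775 and 1218 in UUO, 1366 and 1779 in AC, and 824, 415 and 476 in control, so every injured library was above every control library, as in 6.59% of all tested circRNAs. Its log2 fold change was 1.36 in UUO against control (SE 0.33, edgeR adjusted p = 0.0284) and 1.47 in AC against control (SE 0.36, adjusted p = 0.0320). With each library left out in turn the UUO call held in 3 of 8 settings and the AC call in 1 of 8, with log2 fold changes from 1.16 to 1.69 in UUO and from 1.25 to 1.81 in AC. The UUO call was lost without any one of the UUO libraries or of control replicates 2 and 3 (adjusted p up to 0.129). The AC call held only without control replicate 1, and was weakest without AC replicate 2 (adjusted p = 0.216). For the mean of both injuries against control the value was 1.42 (adjusted p = 0.0110), and leaving out control replicate 3 ended that call (adjusted p = 0.0773). Without the 2 libraries that lacked Uty counts the value was 1.20 in UUO and 1.29 in AC, and no call remained (adjusted p = 0.122 in UUO, 0.10 in AC and 0.0552 for the mean). Fitted on AC and control alone, the AC call was also lost (adjusted p = 0.114). With replicate number as a block in edgeR no call remained (adjusted p = 0.0771 in UUO, 0.179 in AC and 0.0582 for the mean).

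At the receptor step, mmu_circ_0001017 of Acvr2a, an activin type II receptor, had a log2 fold change of -0.35 in UUO against control (adjusted p = 0.629). Its value in AC was also -0.35 (adjusted p = 0.720). Among Smad regulators, mmu_circ_0001153 of Trim33, a ubiquitin ligase that acts on Smad4, was at -0.17 in UUO and -0.23 in AC. The 2 circRNAs of Zfyve9, which presents Smads to the receptor, were at 0.63 (mmu_circ_0001240) and 0.20 (mmu_circ_0001241) in UUO, and at 0.55 and 0.90 in AC. None of these passed. Of the acetyltransferases that join Smads in the nucleus, Ep300 had 3 tested circRNAs, with values from -0.22 to 0.39 in UUO. In AC these were at 0.41 (mmu_circ_0005874), -0.10 (mmu_circ_0000625) and -1.04 (mmu_circ_0000626, adjusted p = 0.244). Crebbp had 2, at 0.85 (mmu_circ_0006283) and -0.25 (mmu_circ_0006284) in UUO, and at 0.09 and 0.45 in AC. In the non-Smad branch, mmu_circ_0011319 of Cdc42, a small GTPase, was at 1.07 in UUO (adjusted p = 0.152) and 1.04 in AC (adjusted p = 0.272), and mmu_circ_0000844 of the kinase Rock1 was at 0.20 in UUO and 0.07 in AC.

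**Figure D5:**
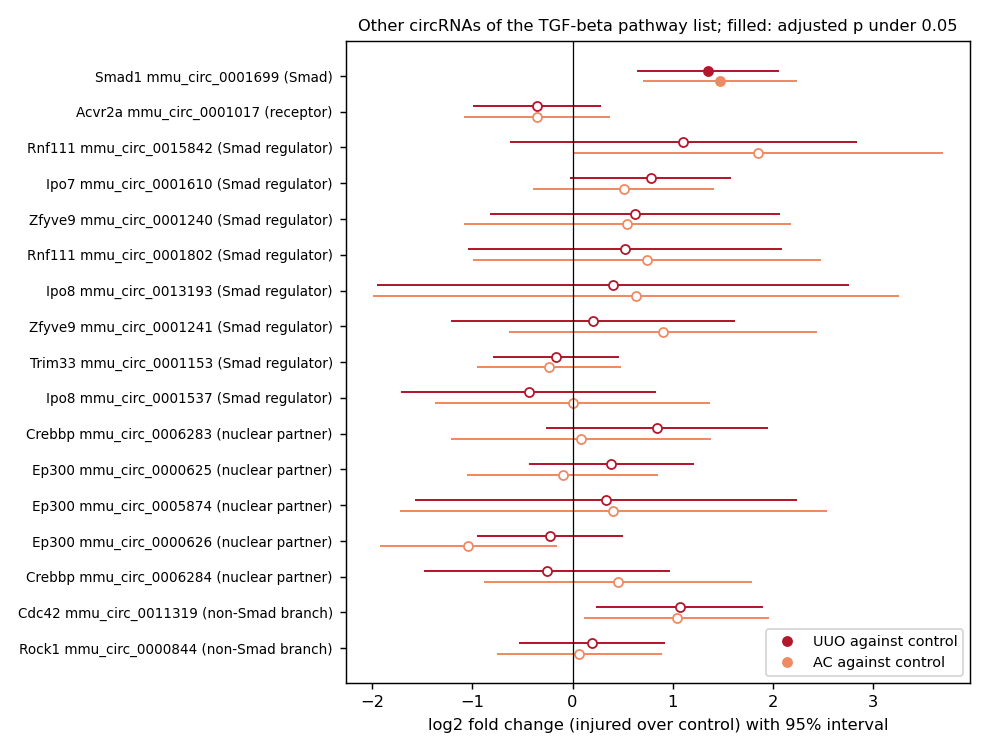
Fitted log2 fold change with 95% interval for the 17 tested circRNAs of other genes on the TGF-beta pathway list, by role, in UUO against control and AC against control; filled points have an adjusted p under 0.05. Only mmu_circ_0001699 of Smad1 is filled, at 1.36 in UUO and 1.47 in AC.

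Levels of the 3 hosts had low or negative correlations with each other across the libraries. Over the 8 libraries, which share the scaling, Pearson's r of the log2 host sums was 0.15 between Smad4 and Tgfbr2, -0.41 between Smad4 and Ltbp1, and -0.12 between Tgfbr2 and Ltbp1. The hosts most like Smad4 among 1181 others were Ppp3cc (r = 0.92), Arih1 (r = 0.84) and Ccdc46 (r = 0.82). Those most like Tgfbr2 were Aatf (r = 0.98), Dennd4c (r = 0.96) and Cuedc1 (r = 0.96), and those most like Ltbp1 were Cdk14 (r = 0.95), Snap47 (r = 0.94) and Uty (r = 0.89). These are descriptions over 8 points of low counts, picked as the highest of many.

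The deposited tables also mark 1084 circRNAs, 17.2% of all, with an entry for experimental evidence, a mark whose meaning the sources do not state. Marked circRNAs held 52.5% of all counts, with a median of 56 counts against 11 for the others. Among the circRNAs of these hosts 3 of 11 were marked, namely mmu_circ_0000894 of Smad4, mmu_circ_0001853 of Tgfbr2 and mmu_circ_0000816 of Ltbp1. The first 2 were the most abundant of the 11, whereas the third had 1 count, in AC replicate 2, and the leading Ltbp1 circRNA had no such mark.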

How the data were processed

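The authors deposited whole-number counts per circRNA and library and a signal table, the same counts divided by 1 constant per library; multiplied back, 100% of values were whole within 0.01. Tools named in the submitters' processing notes are HISAT2 and StringTie, and the build named there is mm9; the notes give no versions, and no source used here names the circRNA caller. The files hold no coordinates or circRNA sequences, so none are printed.

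Counts were tested with edgeR 4.0.16 (quasi-likelihood, TMM, R 4.3.3) over all 8 libraries in 1 fit of 3 groups. The default filter (count of at least 10, scaled to library size, total of at least 15) left 1471 circRNAs. Adjustment was by Benjamini-Hochberg over all features, threshold 0.05. Host sums add every circRNA of a host; 42 rows with no usable host name stayed out of them. CPM uses filtered totals with TMM factors of the circRNA fit, also for host sums, which were fitted apart with their own filter and scaling. Standard errors were derived from the fold change and its F statistic. Single circRNAs were set against the others of their host with diffSpliceDGE. Scripts were tested on simulated data.

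Named were all listed circRNAs of the 3 hosts, pathway hosts with a call, the 2 tested hosts with most counts per role, and the 3 most alike hosts. Members and lists were chosen with earlier results of these data known. Alternatives were DESeq2 1.42.0, limma-voom (limma 3.58.1), other scalings and filters, only the groups compared, a replicate block, and leaving out libraries. Whether replicate numbers pair the libraries could not be decided.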

Additional observations from a re-analysis of the deposited data

How the results depend on the processing

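No circRNA or host sum of Smad4, Tgfbr2 or Ltbp1 passed in any of the comparisons under any alternative run. Between 2 and 11 of the circRNAs passed the filter in these runs. Values were kept only for the 6 circRNAs tested in the main fit and for host sums. Their lowest edgeR adjusted p was 0.125 for circRNAs and 0.163 for host sums, both in UUO against control. Of 370 values of those 6 circRNAs under the alternatives 346 kept their direction, as did 191 of 201 host sums and 139 of 148 differences within a host. Of 170 share differences 160 did not reverse. These include mmu_circ_0000816 in UUO against control, at 0 in all 8 settings with 1 library left out, which has no direction to keep. The cause of the reversals was not tested. Deviations from the group means correlated between -0.113 and 0.0417 for same-numbered libraries, and between -0.0417 and 0.113 for the others. Deviations within a group sum to 0, so those of the 2 AC libraries are exact opposites and both ranges mirror each other. For this reason, and with 2 or 3 libraries per group and low counts, these values cannot decide whether replicate numbers pair the libraries. With a replicate block 12 circRNAs passed in UUO and 5 in AC against control, beside 64 and 49 without it. With that block the Smad1 circRNA had an adjusted p of 0.0771 in UUO, 0.179 in AC and 0.0582 for the mean, and with the deposited constant 0.0956, 0.126 and 0.0407. Counts also moved to 103 in UUO with DESeq2 and, with the deposited constant as library size, to 37 in UUO and 29 in AC. For the mean of UUO and AC against control, 77 passed, beside 124 with DESeq2, 30 with the block and 42 to 75 with 1 library left out. In UUO against AC, 0 passed, beside 4 with no low-count filter and 2 with DESeq2. Of host sums 41 passed in AC and 88 for the mean, beside 18 and 49 with the block. Fitting only the groups compared gave 14 circRNAs in AC. Libraries with Uty counts only, chosen after seeing the data, gave 22 in UUO, 30 in AC and 48 for the mean. Leaving out 1 library gave 10 to 75 in UUO and 11 to 38 in AC.

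With the deposited constant the pathway list had 0 calls in UUO and 0 in AC. There the Smad4 sum turned to -0.13 for the mean of UUO and AC against control (0.12 before), and mmu_circ_0007493 to 0.0065 in UUO against AC. With limma-voom mmu_circ_0007493 turned to 0.017 in AC, and mmu_circ_0000894 to 0.046 for the mean. With the replicate block mmu_circ_0000894 turned to 0.090 for the mean, and mmu_circ_0007494 to 0.20 in UUO against AC. There the difference of mmu_circ_0007493 within its host turned to 0.041 in AC, on the natural-log scale. In libraries with Uty counts only, mmu_circ_0007013 and the Ltbp1 sum turned to 0.15 and 0.15 in UUO against AC, and the Smad4 sum to -0.091 for the mean.

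With each library left out in turn, the pathway list had 0 to 1 calls in each comparison with control. The following ranges cross 0. In UUO against control the Ltbp1 sum ran from -0.37 to 0.93 and mmu_circ_0007493 from -1.05 to 0.081. In AC against control the Smad4 sum ran from -0.29 to 0.16, mmu_circ_0007493 from -1.25 to 0.0015, mmu_circ_0007494 from -3.38 to 5.64 and mmu_circ_0007496 from -1.42 to 1.49. For the mean against control the Smad4 sum ran from -0.017 to 0.43, mmu_circ_0000894 from -0.24 to 0.27 and mmu_circ_0007494 from -0.78 to 5.40. In UUO against AC the Ltbp1 sum ran from -0.93 to 0.21, the Tgfbr2 sum from -0.33 to 0.27, mmu_circ_0007013 from -0.67 to 0.54, mmu_circ_0001853 from -0.33 to 0.24, mmu_circ_0007493 from -0.55 to 0.74 and mmu_circ_0007494 from -1.40 to 5.2. Differences within Smad4 are on the natural-log scale. In AC they ran from -0.83 to 0.21 for mmu_circ_0007493, -2.14 to 4.20 for mmu_circ_0007494 and -0.78 to 1.08 for mmu_circ_0007496. For the mean, the difference of mmu_circ_0007494 ran from -0.58 to 3.8. In UUO against AC these differences ran from -0.056 to 0.11 for mmu_circ_0000894, -0.87 to 0.17 for mmu_circ_0007493 and -1.31 to 3.12 for mmu_circ_0007494. Shares in UUO against control ran, in percentage points, from -14.2 to 5.8 for mmu_circ_0007012, -4.41 to 32.3 for mmu_circ_0007013, -0.33 to 2.80 for mmu_circ_0007494 and -1.28 to 1.70 for mmu_circ_0007495. With UUO and AC together they ran from -13.9 to 2.77 for mmu_circ_0007011, -16.5 to 3.48 for mmu_circ_0007012, -7.58 to 29.1 for mmu_circ_0007013 and -1.01 to 0.32 for mmu_circ_0007492. Where 1 AC library remained, its spread was taken from the other groups. All of these circRNAs but mmu_circ_0000894 had 27 counts or fewer in every library, and the tested ones among them had a biological coefficient of variation between 0.362 and 1.17; which of both limits the tests was not tested.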

Other observations

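The 4 listed circRNAs of Uty, a Y-linked gene, summed to 0, 29 and 13 counts in UUO, 16 and 11 in AC, and 26, 0 and 7 in control. The 2 libraries at 0 were also those with the fewest Ltbp1 counts of their groups, 4 in UUO replicate 1 and 7 in control replicate 2. Control replicate 3 had 8 Ltbp1 counts, so in control the order rests on a small gap. Uty is also among the 3 hosts most like Ltbp1 over these same libraries, so this is no separate support for a link. At these depths a count of 0 allows up to 76.1 CPM in UUO replicate 1 and 56.6 CPM in control replicate 2 (3 counts per library, counting error only).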
